A study of Mus musculus with 2 samples.

Results

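Peaks of trimethylated histone H3 lysine 4 (H3K4me3) that were 1000 bp or wider and lay inside a protein-coding gene, more than 1 kb from both ends of every annotated gene model, are described here as wide internal peaks. They numbered 1377 of the 29924 peaks in the list (4.60%, exact 95% interval 4.37 to 4.85%) and 11.8% of the 11644 peaks of at least that width. They were chosen by their measured width and place, so both are given as description and no test was run. The mark was profiled by chromatin immunoprecipitation and sequencing in neurons of the mouse small intestine sorted as positive for NOS1, the enzyme with which nitrergic neurons make nitric oxide. There was 1 H3K4me3 library and 1 input chromatin library, without replicates and without a second condition. The sources used here do not state strain, age, sex, pooling of animals or the reporter or antibody behind the sort. Depth is unknown because the list holds no read counts, and intervals cover counting over peaks, genes or starts only.

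H3K4me3 is laid down around the start sites of active and poised genes, mostly where the DNA is rich in CpG. A gene can have several start sites, and a start inside the span of the gene yields a transcript with a different first exon and often a shorter or differently regulated protein. Long neuronal, muscle and cytoskeletal genes are known for such alternative promoters. A gene model spans every annotated transcript, so a commonly used start can also lie well inside it. Outer ends of gene models came from RefSeq on GRCm38.p6, which has the chromosomes of mm10. A RefSeq promoter table of that build gives strand and annotated starts, but not exons, so exonic and intronic places could not be told apart. The promoter table is not complete and covered 1007 of the 1248 host genes.

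Promoter sequence is shown for 5 genes, to let the letters be read beside the peaks described below. Each line runs from 150 bases before an annotated start to 30 bases from the start on, 5′ to 3′, from RefSeq on GRCm38.p6. Rarb, a retinoic acid receptor, has its only listed start in a peak of 5141 bp at chr14:16571158-16576298 (window chr14:16575447-16575626, minus strand). Capitals mark a direct repeat of retinoic acid response element half-sites, GTTCA and AGTTCA with 5 bases between them, in this promoter.
Rarb start: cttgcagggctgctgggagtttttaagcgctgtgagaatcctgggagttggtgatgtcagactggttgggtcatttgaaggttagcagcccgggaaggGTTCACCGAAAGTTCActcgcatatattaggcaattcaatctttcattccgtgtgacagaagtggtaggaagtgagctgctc
In the other lines capitals mark CpG dinucleotides. Csrp1, a LIM-domain protein of actin filaments, is shown at its later start under a wide internal peak (chr1:135729017-135729196, plus strand, 12 CpG) and its earlier start under no peak (chr1:135719913-135720092, plus strand, 3 CpG).
Csrp1 later start: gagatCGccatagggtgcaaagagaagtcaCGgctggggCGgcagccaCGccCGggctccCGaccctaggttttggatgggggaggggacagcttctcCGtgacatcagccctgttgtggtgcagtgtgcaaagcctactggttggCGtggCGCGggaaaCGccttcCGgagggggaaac
Csrp1 earlier start: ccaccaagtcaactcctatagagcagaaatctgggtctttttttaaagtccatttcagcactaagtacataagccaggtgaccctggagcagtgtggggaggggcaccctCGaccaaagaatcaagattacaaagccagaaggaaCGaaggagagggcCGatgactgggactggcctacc
Prkg1, the cGMP-dependent protein kinase that acts downstream of nitric oxide, is shown at its later start under a wide internal peak (chr19:31664341-31664520, minus strand) and its earlier start under a peak at the gene end (chr19:31765004-31765183, minus strand), each with 9 CpG.
Prkg1 later start: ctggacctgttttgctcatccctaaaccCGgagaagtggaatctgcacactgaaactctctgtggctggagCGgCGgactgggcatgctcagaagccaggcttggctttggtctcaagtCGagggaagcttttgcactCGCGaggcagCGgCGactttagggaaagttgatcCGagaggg
Prkg1 earlier start: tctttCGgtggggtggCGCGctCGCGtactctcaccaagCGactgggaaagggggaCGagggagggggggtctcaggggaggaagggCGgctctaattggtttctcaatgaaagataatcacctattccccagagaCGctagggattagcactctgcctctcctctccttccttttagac
Cald1, which encodes the actin-binding protein caldesmon, had few CpG at both starts: 1 at the later start under a wide internal peak (chr6:34709294-34709473, plus strand) and 4 at the earlier start under a peak at the gene end (chr6:34598354-34598533, plus strand).
Cald1 later start: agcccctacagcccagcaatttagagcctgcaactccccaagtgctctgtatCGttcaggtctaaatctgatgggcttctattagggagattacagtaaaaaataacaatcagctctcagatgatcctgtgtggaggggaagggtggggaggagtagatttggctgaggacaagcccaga
Cald1 earlier start: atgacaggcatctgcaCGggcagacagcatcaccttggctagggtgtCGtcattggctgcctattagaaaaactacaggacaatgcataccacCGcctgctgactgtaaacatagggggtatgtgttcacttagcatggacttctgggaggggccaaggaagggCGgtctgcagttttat
Kcna2, a Shaker-type potassium channel, has its only listed start in a peak of 5701 bp (chr3:107101417-107101596, plus strand), with 22 CpG.
Kcna2 start: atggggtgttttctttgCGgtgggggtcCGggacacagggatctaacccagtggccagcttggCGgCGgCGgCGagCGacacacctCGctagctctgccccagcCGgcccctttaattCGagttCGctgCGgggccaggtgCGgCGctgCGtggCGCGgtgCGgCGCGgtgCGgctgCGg

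Wide internal peaks covered 2.45 Mb, 8.55% of the length under all peaks. The median width was 1550 bp, with quartiles at 1234 and 2060 bp and a maximum of 6688 bp. Their score, the authors' own value per peak, had a median of 104.9 (interquartile range 51.4 to 168.3) and ran from 8.38 to 327.4. The scale of the score is not given, so it ranks peaks within this list only. In the whole list the median width was 690 bp and the median score 35.7. The width limit cut through a continuous range: 161 wide internal peaks were less than 10% above it, and 205 peaks that met the rest of the rule were up to 10% below it. Just inside lay a peak of 1000 bp in Pdpn and peaks of 1001 bp in Prrx1 and Cast, with scores of 15.1, 55.9 and 89.8. Just outside lay peaks of 999 bp in Dcaf1 and Cbx7 and of 997 bp in Kctd7, with scores of 183.2, 96.1 and 152.0. The distance limit likewise separated Dedd (1002 bp from the nearest end), Abcc4 (1003 bp) and Tchh (1004 bp) from Yipf6 (1000 bp) and Zmiz1 (997 bp).

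Annotated starts of the host gene lay under most of these peaks. Of the 1377, 17 overlapped more than 1 protein-coding gene and 254 lay in a gene without an entry in the promoter table, 49 peaks in all being on chromosome 18. The remaining 1106 could be placed on strand and starts. In 730 of them (66.0%, exact interval 63.1 to 68.8%) an annotated start of the host lay inside the peak, and in 796 (72.0%) inside it or within 1 kb. The first, that is most upstream, listed start was inside in 394 (35.6%) and a later start in 336 (30.4%). No listed start was inside in 376 (34.0%). Since the table is not complete, the last group may hold starts that are not listed, and a later start may be counted as a first one.

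The peaks over the first listed start were mostly the widest of their gene. Their median width was 1716 bp (95% interval 1585 to 1800 bp) and their median score 161.7. In 352 of the 394 (89.3%) no other peak over the gene model was wider. The width limit on internal peaks favours this, and a model with 1 peak, such as that of Dennd6b, always counts. The outer end of the gene model lay 4208 bp upstream of that start in the median, with quartiles at 2325 and 12771 bp, and in 281 of the 394 (71.3%, exact interval 66.6 to 75.7%) that outer 5′ end carried no peak within 1 kb. In these genes the model reached further upstream than the first listed start, and its outer end was unmarked. Rarb was an extreme case, with its start 506.9 kb inside a model of 651.5 kb and no peak at the outer end. Kcna2 had its start 10.7 kb inside a model of 24.1 kb, also without a peak at the outer end. Nr4a1, an immediate early gene and nuclear receptor, had a peak of 5034 bp (score 109.3) at its listed start and a second of 1165 bp (score 117.1) at the outer 5′ end.

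The peaks over a later start lay, by definition, in genes with more than 1 listed start. Their median width was 1590 bp and their median score 111.1. An upstream listed start of the same gene also lay under a peak in 206 of the 336 (61.3%, exact interval 55.9 to 66.5%), in 167 of them under a peak of at least 1000 bp. In the other 130 (38.7%) no upstream listed start was under a peak. The 206 peaks lay in 198 genes, 1.13% of the 17492 protein-coding genes with an entry. Their centre was a median of 27697 bp downstream of the first listed start (quartiles at 9559 and 85364 bp). Exactly 1 peak covered the upstream starts in 191 of the 206, and more than 1 in 15. In the 191, median widths were 1653 bp for the internal peak (95% interval 1576 to 1789 bp) and 1606 bp for the upstream one (1444 to 1689 bp). The internal peak was the wider in 105 of the 191 (55.0%, exact interval 47.6 to 62.2%), which the width limit on internal peaks favours. It had the higher score in 80 (41.9%, exact interval 34.8 to 49.2%), with median scores of 111.3 for internal and 134.6 for upstream peaks. Over all 206, set against the widest upstream peak, it had the higher score in 88 (42.7%). In Rgmb, a co-receptor for bone morphogenetic proteins, the internal peak had 4991 bp and the upstream one 3528 bp. In Rarg, a retinoic acid receptor chosen after its values were seen, they had 4637 bp (score 147.0) and 3263 bp (score 181.1). Csrp1 showed the other arrangement, with 5396 bp (score 175.1, chr1:135728463-135733858) over its later start and no peak at the earlier one.

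Peaks without a listed start were narrower and lower in score. Their median width was 1411 bp (95% interval 1334 to 1476 bp) and their median score 60.2 (52.8 to 71.3), against 161.7 over first starts and 111.1 over later starts. A narrower peak has less room to hold a start, so width bears on this class. A peak stood at the 5′ model end of the host in 280 of the 376 (74.5%), and only 165 (43.9%) were the widest peak of their gene. The nearest listed start was a median of 9431 bp away. In 165 it lay within 5 kb, with a median width of 1388 bp, and in 106 it lay more than 50 kb off, with a median width of 1511 bp. Of these 106, 82 had a peak at the 5′ model end as well. Nr2f2, a COUP-TF nuclear receptor gene, held the widest internal peak of all, 6688 bp at chr7:70355866-70362553 with a score of 201.7, lying 4193 bp from its listed start, which had a peak of 2023 bp. In Rara, a retinoic acid receptor, a peak of 5006 bp (score 159.3) ended 414 bp before a listed start, and the first listed start had its own peak of 2880 bp.

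**Figure D1:**
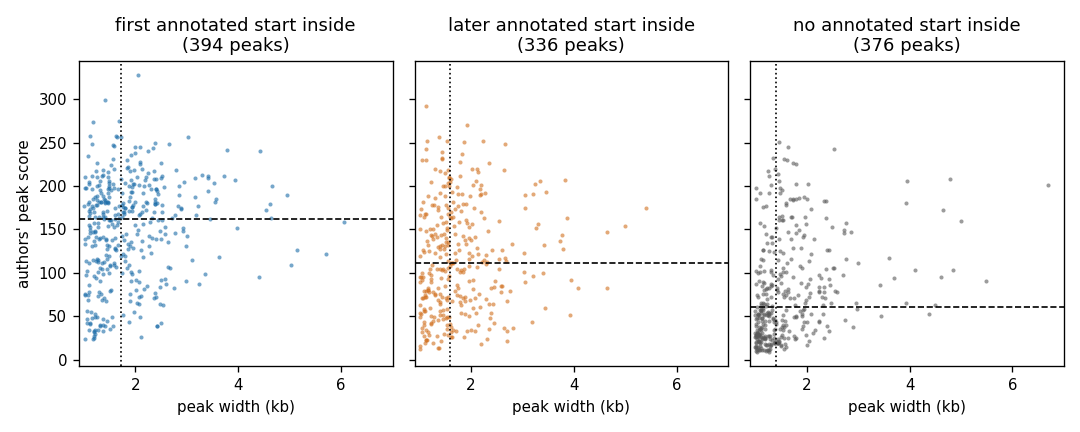
Width in kb and the authors' score of the 1106 wide internal peaks placed on starts, 1 point per peak. Dashed lines give the median score and dotted lines the median width. Scores are highest over the first listed start (median 161.7), lower over a later start (111.1) and lowest where no listed start is inside (60.2).

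Position along the gene differed between the kinds of peak. Over all 1106 peaks the centre lay a median of 29.1% of the way from the 5′ to the 3′ end of the model. Between 0 and 25% of the model lay 496 (44.8%), between 25 and 50% 299 (27.0%), between 50 and 75% 193 (17.5%) and beyond 118 (10.7%). Median distance from the 5′ model end was 4590 bp for peaks over the first listed start, 20979 bp over a later start and 21698 bp with no listed start inside. First and later starts were defined by their order from the 5′ end, which favours a shorter distance for first starts. Every place within 1 kb of a gene end was removed by the rule, which thins out both ends of each model.

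**Figure D2:**
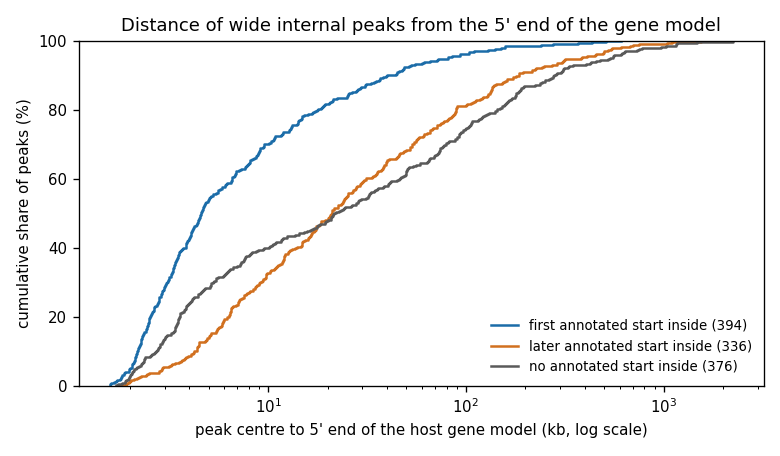
Cumulative share of wide internal peaks against the distance of the peak centre from the 5′ end of the host gene model, in kb on a log scale, 1 line per kind of peak. The line for first listed starts lies to the left, with a median of 4590 bp, which the definition by order of starts favours.

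The mark was shifted downstream of the start it covered. In 655 of the 730 peaks with a listed start inside (89.7%, exact interval 87.3 to 91.8%) the peak centre lay downstream of that start in the direction of transcription. Where a peak held several starts, which was so in 101 of 730, the most upstream one was taken. The median shift was 375 bp (95% interval 356 to 405 bp), with an interquartile range of 177 to 579 bp. At Rarb the centre was 1748 bp downstream of the start, at Kcna2 2102 bp and at Nr4a1 1909 bp. Pdgfa, a growth factor ligand, went the other way, its peak of 6049 bp being centred at -593 bp from its first start. Pdgfb, a ligand of the same family, held a peak of 5510 bp (score 95.9) but has no entry in the promoter table. The distance limit removes peaks that reach upstream toward a near 5′ end, and taking the most upstream start moves the centre downstream, so the choice of peaks and starts bears on this orientation. Among the 297 peaks with 1 start inside that lay over 10 kb from the 5′ model end, a limit set after seeing the data, the centre was downstream in 260 (87.5%, exact interval 83.2 to 91.1%). Their median shift was 363 bp.

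**Figure D3:**
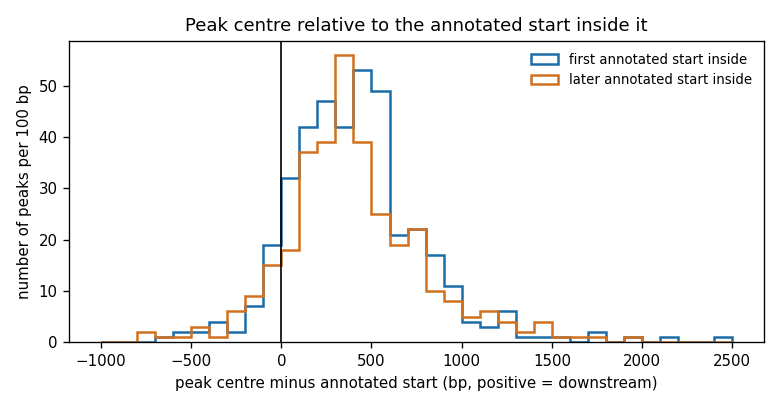
Number of peaks per 100 bp by the distance of the peak centre from the most upstream listed start inside the peak, positive downstream. Both lines peak to the right of 0, with a joint median of 375 bp.

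CpG content was high at starts inside these peaks. Over the promoter window of 300 bases, the median observed-to-expected CpG ratio was 0.81 at first starts (95% interval 0.77 to 0.83), 0.64 at later starts (0.62 to 0.69) and 0.81 at the 8425 starts in wide peaks at gene ends. Upstream starts of the later-start genes that lay under another peak had 0.71 (0.66 to 0.76), and those under no peak 0.27 (0.23 to 0.31). A GC content of at least 50% with a ratio of at least 0.6 was met by 75.9% of first starts, 54.2% of later starts (exact interval 48.7 to 59.6%) and 12.4% of upstream starts without a peak. Starts in wide peaks at gene ends gave 78.5%, and upstream starts of the later-start genes under another peak 61.3%. All 21263 protein-coding starts in the table gave 45.1%, and the 9708 under no peak 11.7%. Within genes, 175 later starts could be set against upstream starts of the same gene under no peak. The ratio was higher at the later start in 145 of them (82.9%), with a median difference of 0.33 (95% interval 0.27 to 0.39). Cald1, both of whose starts lay under peaks and so gave no such pair, had 2113 bp and 2998 bp of H3K4me3 over starts with few CpG.

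**Figure D4:**
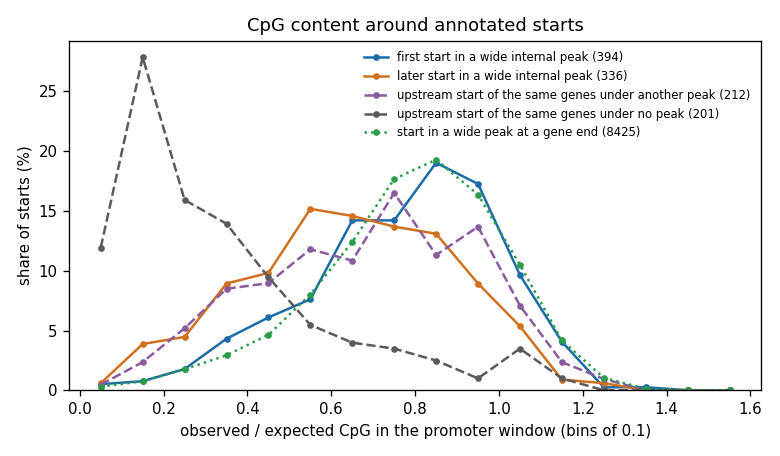
Share of annotated starts in bins of the observed-to-expected CpG ratio, over the promoter window of each start. Starts in wide internal peaks lie mostly to the right, upstream starts of the same genes under no peak to the left (medians 0.81, 0.64 and 0.27 for first, later and unmarked upstream starts).

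Short sequence motifs were counted in the same windows on both strands. The GC box GGGCGG was found at 68.3% of first starts, 62.5% of later starts, 22.4% of the unmarked upstream starts and 46.2% of all protein-coding starts. TATAAA was found at 5.58%, 5.06%, 12.9% and 12.6%. CCAAT was found at 31.7%, 35.1%, 39.8% and 38.2%. Other marked starts had similar shares of GC box, TATAAA and CCAAT. They were 70.8%, 5.47% and 34.4% at starts in wide peaks at gene ends. At upstream starts of the later-start genes under another peak they were 66.5%, 5.19% and 40.6%. The cAMP response element TGACGTCA was found at 3.30% of first and 1.79% of later starts, against 2.23% of all starts, and the AP-1 site TGANTCA at 4.31%, 7.14% and 6.99%. Overlapping matches of different motifs were each counted. The repeat of GTTCA and AGTTCA with 5 bases between, capitalised in the Rarb promoter above, was present in 6 of 21263 starts. Of the 871 starts inside wide internal peaks 1 had it, the Rarb start itself, so this count adds nothing to that example. With AGTTCA as the first half-site too, the repeat was present in 4 of 21263 starts and in 0 of the 871. A match is a run of letters and not evidence of binding.

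Longer genes hosted wide internal peaks more often. The 1377 peaks lay in 1248 genes, 5.7% of 21887 protein-coding genes and 6.75% of those long enough to hold one. The share was 1.92% for genes under 20 kb, 6.22% from 20 kb, 9.42% from 50 kb, 15.9% from 100 kb, 22.1% from 200 kb and 30.4% from 500 kb up. Hosts had a median length of 63.1 kb, against 17.2 kb for all protein-coding genes. Genes with 2 or more listed starts hosted one in 17.1% of cases. A peak also stood at an end of the model in 705 of the 1248 hosts (56.5%, exact interval 53.7 to 59.3%). The share was 42.5% when only the upper 50% of all peaks by score were used and 19.9% with the upper 25%. These limits also removed peaks at gene ends, so an end peak of lower score counted as absent and part of the fall is built in. The gene lists that follow were chosen with earlier results of these data known, and their counts stand beside the share of all genes in the length class of the list's median gene. Genes of a list differ in length, so this share is a rough guide only. No list was matched to the lengths of its own genes.

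Nuclear receptors, transcription factors that respond to hormones and lipids, held the widest of these peaks among the lists. Of 38 genes, 10 were hosts (26.3%, exact interval 13.4 to 43.1%, length class 9.42%), with 11 peaks of median width 3931 bp and median score 139.0. The retinoic acid receptor genes Rara, Rarb and Rarg and the orphan receptor genes Nr2f2, Nr4a1 and Nr4a2 were among them. Of the 76 enteric and neural transcription factor genes, 23 were hosts (30.3%, length class 15.9%), with 33 peaks of median width 2122 bp and median score 76.0. Foxp2, a forkhead factor without an entry in the promoter table, held one of 3719 bp with a score of 40.3, 234917 bp from the nearest gene end. Tbx3, a T-box factor of enteric neurons, held one of 3460 bp (score 51.2). Mef2c, a MADS-box factor of neurons and muscle, held one of 3203 bp (score 96.9) over a later start, with no peak over an earlier one.

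Ion channel and synapse genes were hosts in both lists. Of 43 voltage-gated channel genes, 8 were hosts (18.6%, length class 15.9%), with medians of 2465 bp and a score of 61.2. Beside Kcna2, these included Cacna1c, the L-type calcium channel, with 3049 bp (score 89.8) over a later start, no upstream listed start being marked. The channel subunit gene Kcnab1 showed the same arrangement, with 2698 bp (score 32.9), the only peak over its model. Cacna1h, a T-type calcium channel without an entry in the promoter table, held one of 2613 bp (score 109.3), again the only one. Of 41 genes of synaptic adhesion and scaffold, 16 were hosts (39.0%, exact interval 24.2 to 55.5%, length class 22.1%), with medians of 1295 bp and a score of 57.9. Gphn, the gephyrin scaffold of inhibitory synapses, had 2522 bp (score 211.8) over its listed start. Shank3, a scaffold of excitatory synapses, had 2351 bp (score 70.8). Ptprs, a receptor tyrosine phosphatase of axons, had 2307 bp (score 112.6) over a later start and 2830 bp over the earlier one. Nlgn1, a neuroligin, had 2240 bp (score 97.8) with a listed start 29 bp outside the peak.

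Genes of the cytoskeleton included several with more than 1 such peak. Of 20 ankyrin, spectrin, dystrophin and cytolinker genes, 10 were hosts (exact interval of the share 27.2 to 72.8%, length class 22.1%), with 19 peaks. Dst, the cytolinker dystonin, which is made as neuronal, muscle and epithelial isoforms, held 4. They had widths of 2060, 1605, 1426 and 4371 bp and scores of 76.3, 162.2, 19.2 and 52.6 in 5′ to 3′ order, beside a peak of 2180 bp at the outer 5′ end. Only the second covered a listed start. Plec, the cytolinker plectin, held 4 as well, the widest of 2948 bp (score 56.1). Ank3, which encodes ankyrin-G of the axon initial segment, held one of 2789 bp (score 77.4). Among 18 microtubule-associated genes 5 were hosts (27.8%, length class 15.9%), such as Map1b with 2293 bp (score 72.7), Mapt, which encodes tau, with 1814 bp (score 106.0), and Clasp2 with 1789 bp (score 73.2). Plec, Ank3 and Mapt have no entry in the promoter table, so their peaks could not be placed on starts. The Mapt peak lay 1972 bp from the nearest gene end, and neither end of its model had a peak.

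Genes of cyclic nucleotide signalling included the target kinase of nitric oxide. Of 11 matched genes of nitric oxide and cGMP signalling, 1 was a host, Prkg1 (9.09%, exact interval 0.23 to 41.3%, length class 9.42%). Its internal peak, at chr19:31663415-31665374, had 1960 bp and a score of 115.9, over a start 100.9 kb from the 5′ model end, against 3222 bp and 138.8 over the earlier start. Both known forms of this kinase begin with alternative first exons. Nos1 itself held no wide internal peak, and the 1 peak over its model had 183 bp and a score of 13.0. Of 19 phosphodiesterase genes, which break down cAMP and cGMP, 6 were hosts (31.6%, length class 15.9%), with 9 peaks. Pde2a had 2672 bp (score 113.1) over later starts with no upstream mark, Pde4b 2308 bp (score 52.2) with no listed start inside, and Pde10a 2223 bp (score 85.2) over its first listed start. Pde8b had 1957 bp (score 140.0) over later starts and 445 bp over the earlier ones. Pde4d held 3, of 1757, 1499 and 1012 bp with scores of 71.1, 96.3 and 25.9, while its 1 listed start, at the outer 5′ end, carried none.

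Kinase, growth factor and RNA-binding genes fell into the same classes. Of 40 kinases and small GTPase exchange factors, 14 were hosts (35.0%, length class 22.1%). Arhgef3 had 2794 bp (score 133.1) over a later start and 298 bp over an earlier one, Plekhg5 2385 bp (score 179.6) over its first listed start, and the synaptic exchange factor genes Kalrn and Trio 2018 bp (score 87.7) and 1898 bp (score 50.4) with no listed start inside. Of 24 neurotrophic and neuregulin genes, 6 were hosts (length class 9.42%). Ntf3, which encodes neurotrophin-3, had 2636 bp (score 37.1) over a later start and 452 bp over the earlier one. Gdnf, the ligand of the RET receptor complex, had 1225 bp (score 50.8) over its later start and 1961 bp over the earlier. Bdnf, the classic example of a gene with many promoters, has 7 listed starts, of which the fifth alone lay under a peak, of 1622 bp (score 26.7). Igf1r had 1728 bp (score 95.5) with no listed start inside. Of 27 neuronal RNA-binding genes, 8 were hosts (29.6%, length class 15.9%), with 12 peaks of median width 1846 bp. Mbnl1, a splicing factor, had 3338 bp (score 205.8) and Elavl2, a neuronal Hu protein, 2349 bp (score 64.1), each over a later start with no upstream mark. Rbfox2, another splicing factor, held peaks of 2754 bp (score 93.1) and 2056 bp (score 165.0).

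Among 40 genes that textbooks name for alternative promoters, 19 were hosts (47.5%, exact interval 31.5 to 63.9%, length class 22.1%), with 28 peaks. The lists overlap, their 502 entries being 461 distinct symbols. Hosts of this list such as Bdnf, Dst and Pde4d are also counted in a list above. Lmna, which encodes lamins A and C, had 3779 bp (score 241.2) over its first listed start. Gnas, chosen after its values were seen, is an imprinted locus whose most downstream promoter makes the stimulatory G protein alpha subunit. That promoter carried the wide internal peak, of 3195 bp at chr2:174329053-174332247 with a score of 190.3. Both starts about 43.4 kb from the 5′ model end shared a peak of 1320 bp (score 40.3), and the outermost start had one of 167 bp (score 4.67).

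Genes of other cells of the gut wall were hosts as well. In the marker check all 8 pan-neuronal markers had a peak at a gene end, while of the 4 nitrergic markers 2 did, Nos1 had none at an end and Vip none over its model. By the same measure of a peak at a gene end, smooth muscle had 5 of 5 markers, enteric glia 4 of 5, epithelium 4 of 5, interstitial cells and fibroblasts 2 of 4, endothelium 2 of 4 and leukocytes 1 of 4. The share of all protein-coding genes with a peak at an end was not computed. Of all 21263 listed protein-coding starts, 9708 lay under no peak, so a marked start was common. No peak lay anywhere over the models of Vil1 of epithelium, Cdh5 of endothelium, and Cd3e and Itgam of leukocytes. Of the 5 smooth muscle markers 0 hosted a wide internal peak, against 1 of 8 pan-neuronal, 1 of 5 glial and 2 of 4 interstitial ones. The nitrergic, epithelial, endothelial and leukocyte markers also gave 0 hosts. Of the 19 genes in the smooth muscle list 8 hosted a wide internal peak (42.1%, exact interval 20.3 to 66.5%, length class 6.22%). Among them were Cacna1c and Prkg1, which neurons also use and whose models, of 610.1 and 1200.8 kb, are far longer than that class. Cald1 had 2113 bp (score 106.8) over its later start and 2998 bp over the earlier, and the tropomyosin gene Tpm1 2027 bp (score 202.6) with no listed start inside. Of 17 glial genes 4 were hosts (23.5%, length class 1.92%), among them Gpr37l1 with 1388 bp (score 45.8), Cdh19 with 1337 bp (score 31.9) and Erbb3 with 1094 bp (score 35.7). The interstitial markers Pdgfra (1518 bp, score 28.2) and Ano1 (1075 bp, score 21.8) were hosts, 2 of 15 in that list (13.3%, length class 6.22%). In the endothelial list 1 of 15 was a host (6.67%, length class 6.22%), Esam (1429 bp, score 49.0). There were 0 hosts among 20 epithelial genes (length class 1.92%) and 18 leukocyte genes (length class 6.22%). These counts allow shares of up to 16.8% and 18.5% (exact upper limits), which include the length class shares. The part of other cell types in the peaks of neuronal genes was not tested.

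Most hosts held a single wide internal peak. This was so for 1121 of 1248 genes (89.8%), while 100 held 2, 21 held 3, 5 held 4 and 1 held 5. The gene with 5 was Aopep, an aminopeptidase gene, with peaks of 3947, 2086, 1436, 5490 and 1502 bp and scores of 205.8, 52.8, 23.4, 90.6 and 25.6. All lay toward the 3′ end of the model, from 274.5 to 315.3 kb of its 361.2 kb, and 274.5 kb or more from its 1 listed start, which had a peak of 1048 bp. Dab2ip, a Ras GTPase-activating gene, held peaks of 1739, 1004, 2725 and 1536 bp, of which all but the third covered a listed start. Frmd4a, which encodes a FERM-domain scaffold, held peaks of 1085, 2312, 1972 and 3928 bp, all but the second over a listed start. Hoxb3, whose model spans 40830 bp of the Hoxb cluster, held 4, from 1354 to 2702 bp. Bcor, a transcriptional corepressor gene, held 3 without a listed start, of 4619, 1979 and 1598 bp, and Stard13, a GTPase-activating gene, 3, of 4540, 1491 and 1558 bp in 5′ to 3′ order. The readthrough model Iqschfp held 3, of 3070, 2309 and 1731 bp, which other gene models share. In all, 71 neighbouring pairs of wide internal peaks were within 10 kb of each other.

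**Figure D5:**
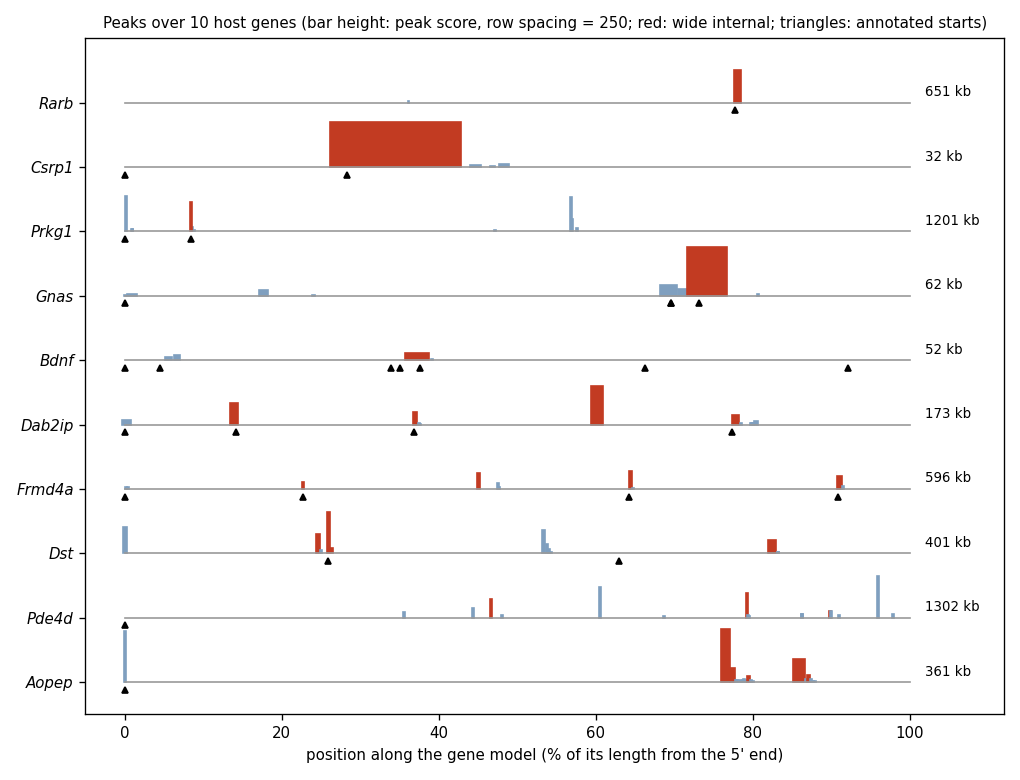
Peaks along 10 host gene models, drawn from the 5′ end (0) to the 3′ end (100% of the length given at the right), with bar height for the authors' score and triangles for listed starts. Red bars are wide internal peaks and blue bars other peaks. In Rarb, Csrp1, Prkg1 and Gnas a red bar stands over a listed start, whereas in Pde4d and Aopep none does.

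Scores were highest in genes of many kinds. Wdr20, a WD-repeat gene, led with 327.4 in a peak of 2057 bp, followed by Btbd9 (323.6, 2426 bp), Dennd6b (299.4, 1414 bp), the Sp-family factor gene Sp2 (291.9, 1114 bp) and the scaffold gene Iqgap1 (275.0, 1676 bp). Zfp638 (273.6), Zfp574 (271.8), the ubiquitin ligase gene Rnf114 (270.6) and the COPII coat gene Sec24d (258.0) completed the named ones. Across wide internal peaks, width and score had a rank correlation of 0.31 (n = 1377 peaks of 1 library), and 0.14 across 9459 wide peaks at gene ends. Farthest from any gene end lay the peak of Dab1, an adaptor of reelin signalling (2036 bp, score 80.9, 339762 bp away). Next were those of the adhesion gene Lsamp (1637 bp, score 67.5, 297795 bp) and the histone deacetylase gene Hdac9 (1885 bp, score 52.8, 236230 bp), then Foxp2 and Pde4d (217077 bp). Those of Dab1, Lsamp and Hdac9 each covered a later listed start. A miRNA hairpin lay within 10 kb of 32 of the 1377 wide internal peaks, and hairpins near other peaks were not counted. The hairpin of Mir10a, in the Hoxb cluster, was 5449 bp from one Hoxb3 peak and 7917 bp from another, and that of Mir335 was 1410 bp from a peak of 2747 bp in its imprinted host Mest, a gene chosen after its values were seen.

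Set beside other peaks of the same library, wide internal peaks had a median score (104.9) between those of wide peaks at gene ends (160.9) and narrower internal ones (7.63). Wide peaks at protein-coding gene ends numbered 9459, of 1640 bp in the median, and narrower peaks inside genes 6926, of 263 bp. A listed start of a protein-coding gene lay inside 65.7% of the wide internal peaks whose host has an entry (exact interval 62.9 to 68.5%), against 5.35% of the narrower internal ones (4.76 to 5.98%). In wide peaks at gene ends, of which not all genes have an entry, the share was 71.7%. The rule set the widths of these groups, and a wider peak has more room to hold a start. The shares were not adjusted for width. The highest 25% of scores in the list held 35.7% of wide internal peaks, against 62.2% of wide end peaks and 0.81% of narrower internal peaks. Another peak lay closer than 1 kb to 49.7% of wide internal peaks, against 44.1% of wide end peaks and 67.6% of narrower internal ones. Widths of at least 3000 bp made up 7.12% of wide internal and 6.76% of wide end peaks (exact intervals 5.82 to 8.60% and 6.26 to 7.28%). With 1 library there is no replicate against which these differences could be tested.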

How the data were processed

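The authors deposited 1 peak list, of the H3K4me3 library of sorted NOS1+ neurons. Per the file headers it came from MACS2 on paired-end reads. The submitters' processing notes name BWA, Picard, MACS2 and build mm10, with no role or version. The deposited score per peak has no stated scale, and the sources used here do not state the peak threshold or depth. Input reads were not analysed here.

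Gene models (21887 protein-coding genes, 21 chromosomes) and annotated starts (21263) came from RefSeq tables on GRCm38.p6. Widths, distances, overlaps and shares were computed with Python 3.11.15, pandas 2.3.3 and SciPy 1.17.1. Shares have exact 95% Clopper-Pearson intervals and medians order-statistic intervals. The code was tested on simulated data. Members and the 18 gene lists (502 entries, all matched but Irag1) were chosen with earlier results of these data known. Names were taken from the 10 widest, the 10 highest in score, the 5 farthest from a gene end, up to 10 hosts with 3 or more peaks, up to 4 peaks per list by width, and peaks at the limits, apart from those said to be chosen after their values were seen. A few genes that this takes, among them those of chromosome 18, are counted but not reported here by name.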

Additional observations from a re-analysis of the deposited data

How the results depend on the processing

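No paired analysis was possible because the series holds 1 library of each kind. Each alternative changed 1 choice, and the cause of a shift beyond the choice itself was not tested. The score limits also removed peaks at gene ends, which by itself lowers the share of hosts with one. Restricted to the upper 50% of scores, the median score was 124.9, the median width 1615 bp, the share of hosts with a peak at an end 42.5%, that of peaks alone in their host 84.2% and that of peaks over a start 71.9%. Restricted to the upper 25%, 492 peaks in 493 hosts were left, 21 of them in the lists (123 without the limit), with medians of 183.8 for score, 1738 bp for width and 4238 bp for distance to the nearest end, and shares of 19.9%, 98.6% and 84.0%. With 500 bp kept from gene ends, the median distance was 3873 bp and the share of hosts with a peak at an end 62.9%. With 2500 bp, these were 10519 bp and 59.4%, and 77.1% were alone in their host, against 79.7%. At 1500 bp or wider, 751 peaks in 705 hosts had a median score of 126.5 and width of 2004 bp, with shares of 52.1%, 87.8% and 72.9%. At 750 bp, the medians were 77.5 and 1309 bp and the shares 60.8%, 72.7% and 56.4%. With peaks under 1 kb apart merged, the median width was 1748 bp, score 95.1 and distance 7171 bp, and 69.0% held a start. The other 37 of 72 values stayed within their interval or within 1.5 times. The share over a start and the list count were added to the plan after seeing the data. Unknown depth limits both the calling and the width of weak peaks.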
